A study of Mus musculus with 6 samples.

Results

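The mitochondrial ribosomal protein genes are the nuclear genes for the protein subunits of the ribosome inside mitochondria. They were chosen by name, as protein-coding genes whose symbol begins with Mrpl or Mrps followed by a number, and 78 of the 35122 genes in the count table met this rule. By the place of the protein, 51 of the 78 belong to the large subunit and 26 to the small subunit. Mrps30 and Mrps18a were placed in the large subunit, where their proteins sit in spite of the name. The remaining gene, Mrps36, is now known to encode an adaptor of the oxoglutarate dehydrogenase complex, an enzyme of the citric acid cycle, and was placed in neither. The 78 genes lie on 17 chromosomes, with at most 11 on a single chromosome (chromosome 11).

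The mitochondrial ribosome makes the few proteins that are still encoded by mitochondrial DNA, which are core subunits of the respiratory chain and of ATP synthase. Its proteins are made in the cytosol and imported, and in mitochondria they join ribosomal RNA that is transcribed from mitochondrial DNA. In white adipocytes, mitochondria oxidise fuel and also supply precursors for the synthesis of triglycerides.

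The samples were the adipocyte fractions of epididymal fat from 6 male C57BL/6 mice on standard chow, with 1 RNA-seq library per mouse. The 3 control mice were PU.1 fl/fl, with loxP sites around exon 5 of Spi1, the gene for the transcription factor PU.1. The 3 aPU.1KO mice were AdipoqCre PU.1 fl/fl, so that they carried the same floxed alleles and also Cre under the promoter and enhancer of the adiponectin gene. Both groups were 10 to 11 months old by their labels, while the study's text has them at more than 1 year. The adipocyte fraction is the floating layer left after collagenase digestion, and it can still hold other cells. The comparison asks how adipocyte gene expression differs when PU.1 is deleted there. In bulk RNA, fewer cells of a type and less RNA per cell cannot be told apart. Levels are given as CPM, counts per 1000000 counts of a library after scaling by TMM (trimmed mean of M values) factors, and fold changes are aPU.1KO over control. Mice are numbered within a group by their labels only.

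Total counts were between 20550252 and 69283842 per library, with control mouse 1 the deepest. Spi1 was lower in the aPU.1KO mice, at 3.20, 1.22 and 4.17 CPM against 24.3, 6.35 and 26.7 CPM in the controls, and reads of its exons outside the deletion are counted too. Its log2 fold change was −2.75 (SE 0.64), with an adjusted p of 0.0788 by edgeR's quasi-likelihood test. Of 10 adipocyte markers, 9 had a positive log2 fold change, and their summed level was 26756 to 29207 CPM in controls and 32437 to 38975 CPM in aPU.1KO mice. Of 13 macrophage markers, 12 had a negative one, and their sum was 1551, 456 and 1491 CPM in the controls and 312, 217 and 289 CPM in the aPU.1KO mice. Macrophages express Spi1, so that its level here is not a measure of the deletion in adipocytes alone. The 5 stromal, 5 endothelial and 5 hepatocyte markers also had negative log2 fold changes.

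All 78 genes were measured and all 78 passed the filter on low counts, which left 13925 genes of the whole table. Each of the 78 had a higher estimated level in the aPU.1KO mice, that is a log2 fold change above 0, as did 52% of all genes tested (with library totals in place of TMM factors, 67 of the 78 did). None of the 78 was called at an adjusted p under 0.05 by the quasi-likelihood test of edgeR (p adjusted by the Benjamini-Hochberg method), which called 0.237% of all genes. At an unadjusted p under 0.05, 40 of the 78 were higher, against 11.9% of all genes, and 0 were lower, against 13.7% of all genes. DESeq2, the tool that the study's methods name, called 16 of the 78 higher at its own adjusted p under 0.05, against 4.69% of all genes. In 49 of the 78, every aPU.1KO mouse lay above every control mouse, which held for 16.7% of all genes. The reverse order was found in 0 of the 78 and in 15.5% of all genes. With library totals in place of TMM factors, 16 were higher at an unadjusted p under 0.05 (5.15% of all genes) and 22 had every aPU.1KO mouse above every control mouse (7.59%). Without control mouse 1 the first count was 18 (4.15% of all genes), and without control mouse 2 it was 23 (11%).

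The median log2 fold change of the 78 genes was 0.23, a fold of 1.17, with quartiles of 0.18 and 0.34, where the median over all genes tested was 0.014. The lowest value was 0.02, for Mrpl21, and the highest 0.51, for Mrpl23. The median SE of a single gene was 0.098. The 33 genes called by edgeR in the whole table include none of the 78, and the adjusted p of the 78 ran from 0.0722 to 0.927.

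**Figure D1:**
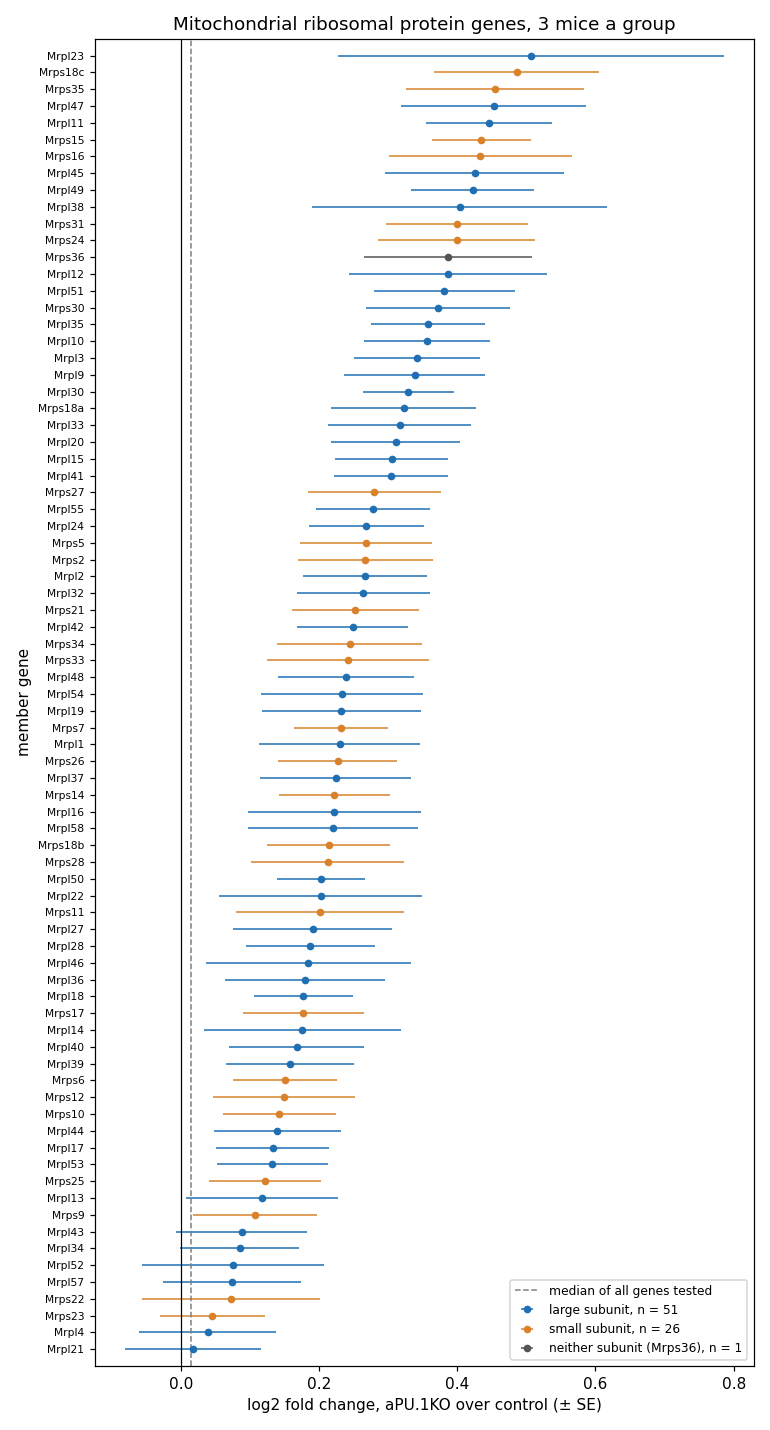
Log2 fold change of each of the 78 genes (x axis, aPU.1KO over control, points with SE from edgeR's quasi-likelihood fit, 3 mice a group), ordered by size and coloured by ribosomal subunit; the dashed line is the median of all genes tested. Every point lies to the right of 0, from 0.02 for Mrpl21 to 0.51 for Mrpl23 (67 of 78 would with library totals in place of TMM factors), and both subunits are spread along the whole range.

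Promoters of many nuclear genes for mitochondrial proteins are known to hold sites for ETS-family factors such as GABP, and for NRF1 and YY1. PU.1 is itself an ETS-family factor, one that prefers a purine-rich form of the site. Windows of 300 bases (250 before and 50 after each start) were taken from RefSeq on GRCm38.p6, and 75 windows matched 69 of the 78 genes. The general ETS letters, CCGGAAG on either strand, stood in 26 of the 75 windows (34.7%), against 16.2% of the 13610 windows of genes tested and 8.86% of all 32851 windows. Their 31 matches lay close to the start, at a median of 17 bases before it. The 4 stretches shown first below are the last 100 bases before the start in those genes named here by rule that hold the ETS letters there, and the capitals mark those letters. The stretch of Mrps15, the gene with the smallest p, covers 120 bases, has no ETS match, and has the SP1 letters GGGCGG, here read on the opposite strand, in capitals.

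Mrps18a, chr17:46110904-46111003, plus strand: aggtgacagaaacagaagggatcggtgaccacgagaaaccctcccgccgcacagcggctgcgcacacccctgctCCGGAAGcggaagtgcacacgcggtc
Mrpl53, chr6:83109008-83109107, plus strand: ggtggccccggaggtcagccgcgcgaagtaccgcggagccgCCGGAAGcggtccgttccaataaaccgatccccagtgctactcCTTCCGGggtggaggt
Mrpl27, chr11:94653691-94653790, plus strand: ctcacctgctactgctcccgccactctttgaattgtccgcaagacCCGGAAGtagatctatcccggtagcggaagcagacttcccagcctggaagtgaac
Mrpl22, chr11:58171564-58171663, plus strand: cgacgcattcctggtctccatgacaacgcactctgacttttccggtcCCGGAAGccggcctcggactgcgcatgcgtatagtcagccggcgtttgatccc
Mrps15, chr4:126046808-126046927, plus strand: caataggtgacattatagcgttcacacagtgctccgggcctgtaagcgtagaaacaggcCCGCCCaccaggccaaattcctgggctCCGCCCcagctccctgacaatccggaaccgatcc

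The NRF1 letters GCGCATGC, also present in the Mrpl22 stretch, stood in 10.7% of the 75 windows and in 4.84% of the windows of genes tested. The YY1 letters ATGGCGG stood in 17.3% and 7.38%. By contrast, the PU.1-type letters GAGGAAG stood in 10.7% of the 75 windows and in 13.5% of the windows of genes tested. The SP1 letters stood in 52% and 60.2%, and the E-box CACGTG in 9.33% and 9.49%. The windows of the 75 had a median GC content of 58.7%, against 60.3% for the genes tested. The 26 genes with the ETS letters had a median log2 fold change of 0.21 and the 43 without them one of 0.27. A match of letters is a description of the sequence and shows no binding.

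**Figure D2:**
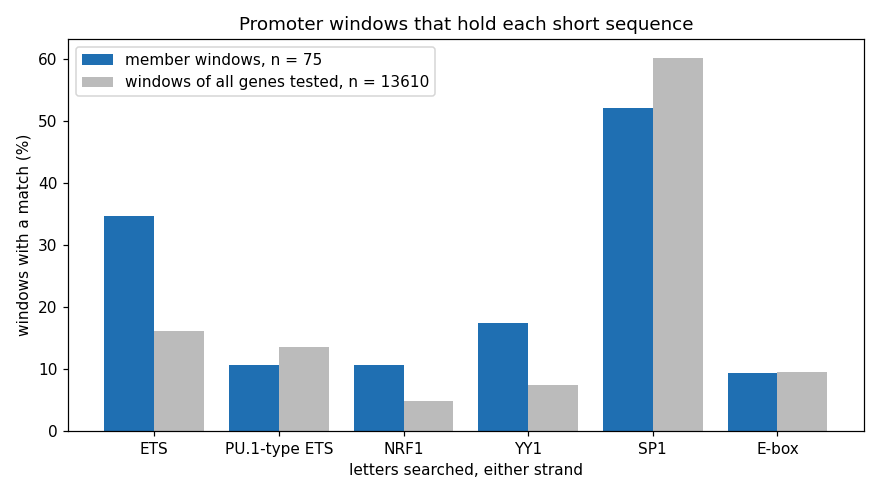
Share of promoter windows (y axis, percent) that hold each short sequence (x axis) on either strand, for the 75 windows of mitochondrial ribosomal protein genes (blue) and the 13610 windows of all genes tested (grey). The blue bar is the taller one for ETS (34.7% against 16.2%), NRF1 and YY1, and the shorter one for the PU.1-type letters and SP1.

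Among the proteins of the small subunit, Mrps15 had the smallest p of all 78 genes. Mrps15 (ENSMUSG00000028861, chromosome 4, 126046925 to 126055532, GRCm38) encodes the counterpart of a bacterial protein that binds the small ribosomal RNA early in assembly. It stood at 31.9, 33.8 and 32.3 CPM in the control mice and at 43.5, 45.9 and 43.0 CPM in the aPU.1KO mice. The groups were far apart relative to their spread, with every aPU.1KO mouse above every control mouse. The log2 fold change was 0.43 (SE 0.07), with an adjusted p of 0.0722 by edgeR's quasi-likelihood test and of 0.000153 by DESeq2. Mrps31, a subunit that bacteria lack, stood at 14.8, 15.5 and 16.0 CPM in controls and at 21.1, 21.7 and 18.2 CPM in aPU.1KO mice, with a log2 fold change of 0.40 (SE 0.10). Here too the groups did not overlap, and aPU.1KO mouse 3 was the closest to the controls.

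Mrps18a, Mrps18b and Mrps18c are paralogs that each descend from the gene for a single bacterial protein and now occupy different sites of the ribosome. Mrps18c, the form in the bacterial position of the small subunit, stood at 22.7, 21.8 and 24.98 CPM in controls and at 32.1, 36.8 and 28.2 CPM in aPU.1KO mice. Its log2 fold change was 0.49 (SE 0.12), with an adjusted p of 0.0856 by edgeR's quasi-likelihood test and of 0.0155 by DESeq2, and it was 0.25 when the fit had offsets that allow for each library's trend with transcript length and GC content. The log2 fold changes of Mrps18a, in the large subunit, and Mrps18b, in the small subunit, were 0.32 (SE 0.11) and 0.21 (SE 0.09), and with those offsets Mrps18b was at 0.08. None of the 3 overlapped between the groups, and the differences among the 3 were not tested. Mrps36, which is in neither subunit, stood at 16.2, 13.8 and 16.7 CPM in controls and 19.4, 22.8 and 18.9 CPM in aPU.1KO mice (log2 fold change 0.39, SE 0.12, and 0.18 with the offsets).

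Of the large subunit, Mrpl30, the counterpart of a bacterial protein, stood at 47.3, 49.5 and 50.0 CPM in controls and at 60.4, 63.6 and 60.3 CPM in aPU.1KO mice. Its log2 fold change was 0.33 (SE 0.07), with an adjusted p of 0.0764 by edgeR's quasi-likelihood test and of 0.0031 by DESeq2. The groups did not overlap, and the log2 fold change was 0.18 with offsets for transcript length and GC content and 0.21 with library totals in place of TMM factors. Mrpl49, which has no bacterial counterpart, stood at 33.4, 35.3 and 34.3 CPM in controls and at 48.2, 48.6 and 41.2 CPM in aPU.1KO mice (log2 fold change 0.42, SE 0.09). Mrpl35 stood at 19.2, 18.8 and 18.9 CPM against 23.0, 25.4 and 24.5 CPM (log2 fold change 0.36, SE 0.08). The least of the aPU.1KO mice exceeded the highest control in both genes. Mrps30, a mitochondria-specific protein of the large subunit, had a log2 fold change of 0.37 (SE 0.10). That value was 0.25 with library totals and 0.15 with a score of the 13 macrophage markers as a covariate.

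The stalk of the large subunit recruits translation factors to the ribosome. Mrpl11 and Mrpl10, whose proteins form the base of the stalk, had log2 fold changes of 0.45 (SE 0.09) and 0.36 (SE 0.09). With library totals in place of TMM factors the values were 0.32 and 0.23, and with the macrophage score as a covariate 0.23 and 0.31. Mrpl11 stood at 29.2, 32.1 and 29.4 CPM in controls and at 40.4, 44.8 and 38.3 CPM in aPU.1KO mice, and Mrpl10 at 43.4, 43.6 and 46.6 CPM against 53.0, 63.6 and 54.4 CPM. Mrpl12, which is present in several copies on the stalk and has also been found bound to the mitochondrial RNA polymerase, stood at 48.4, 47.0 and 49.4 CPM in controls and at 62.2, 76.2 and 50.9 CPM in aPU.1KO mice. Its aPU.1KO mice were widely spread, and mouse 3 was just above the highest control. The log2 fold change of Mrpl12 was 0.39 (SE 0.14), and 0.23 without aPU.1KO mouse 2.

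**Figure D3:**
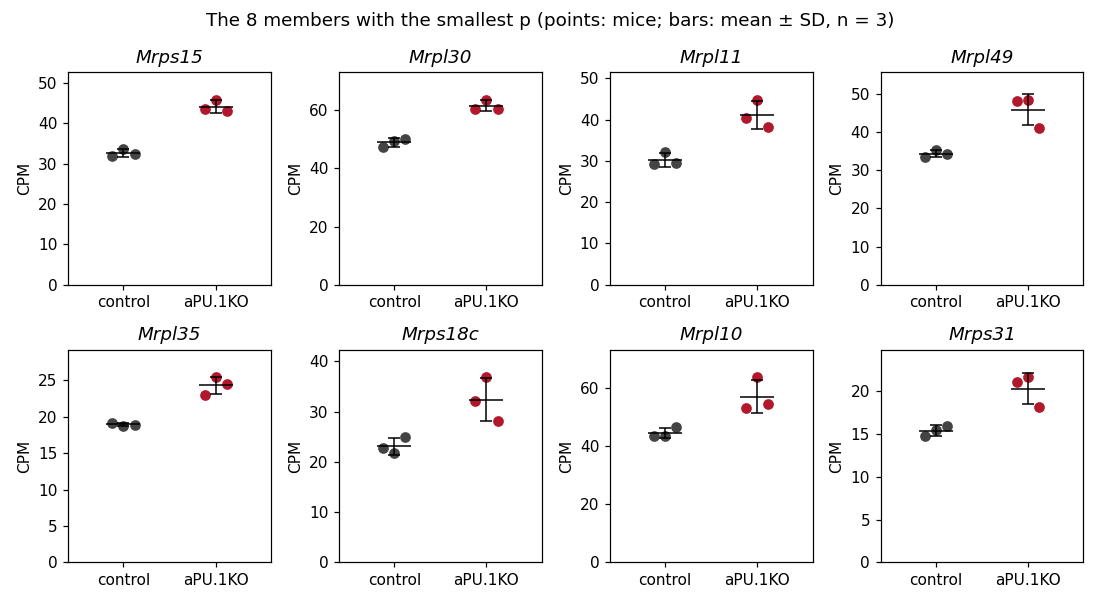
Level in CPM (y axis, from 0) of the 8 genes with the smallest p in each control and aPU.1KO mouse (points), with the mean and SD of each group (bars, n = 3). No aPU.1KO point falls to the level of a control point in these genes, for example 43.0 to 45.9 CPM against 31.9 to 33.8 CPM in Mrps15.

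The 51 genes of the large subunit and the 26 of the small subunit had the same median of 0.23 on the log2 scale, and 25 and 14 of them were higher at an unadjusted p under 0.05, against 11.9% of all genes. The 45 genes with a bacterial counterpart and the 32 mitochondria-specific ones also had medians of 0.23 each. By region, the medians were 0.36 for the 5 genes of the stalk, 0.19 for 6 of the central protuberance, 0.24 for 8 at the rim of the exit tunnel, 0.24 for 4 near the catalytic core and 0.22 for 8 of the decoding region and mRNA channel. These are descriptions, and no region was tested against another. The summed level of the large subunit genes was 1.80, 1.80 and 1.78 times that of the small subunit genes in the controls and 1.83, 1.91 and 1.75 times in the aPU.1KO mice, so that the ratio overlapped between the groups.

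Levels per length of transcript differed widely among the genes. In the controls, Mrps6 had the highest level, at 153 CPM per kb (SD 4.52, n = 3), followed by Mrps21 at 126 (SD 8.74) and Mrpl20 at 91.3 (SD 3.25). Mrpl18 and Mrpl27 followed at 66.2 (SD 1.65) and 63.2 (SD 5.99) CPM per kb, which is within their spread. The lowest were Mrpl19 at 6.45 (SD 0.14), Mrpl47 at 5.42 (SD 0.73) and Mrpl23 at 1.97 CPM per kb (SD 0.62), and the median of the 78 was 26.7 CPM per kb. Log2 fold changes of the 5 highest genes were 0.15 for Mrps6, 0.25 for Mrps21, 0.31 for Mrpl20, 0.18 for Mrpl18 and 0.19 for Mrpl27. With offsets for transcript length and GC content they were 0.05, 0.07, 0.15, 0.0029 and 0.03, and with library totals in place of TMM factors 0.03, 0.13, 0.18, 0.05 and 0.06, in the same order. Without aPU.1KO mouse 2, Mrpl27 was at 0.12. In Mrps6, all 3 aPU.1KO mice, at 149, 144 and 161 CPM, exceeded the controls at 135, 133 and 141 CPM, by a smaller margin than in Mrps15. Mrps6 shares exon sequence with Slc5a3 on the same strand.

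The largest fold change and the lowest level both belonged to Mrpl23 (ENSMUSG00000037772, chromosome 7, 142532686 to 142540747, GRCm38), and both are uncertain. Its protein sits at the exit of the peptide tunnel. The gene has a processed pseudogene, Mrpl23-ps1, on chromosome 2 (74591330 to 74591909), that holds the whole coding sequence of 438 bases without a mismatch. The first 60 coding bases, which are the same in both, are shown because a read from them fits either gene.

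Mrpl23 and Mrpl23-ps1: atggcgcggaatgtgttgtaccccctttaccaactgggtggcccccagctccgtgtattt

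The authors' estimated counts gave 478 to Mrpl23 and 3661 to Mrpl23-ps1 over the 6 libraries. Mrpl23 stood at 2.51, 1.40 and 2.66 CPM in controls and at 3.15, 3.03 and 3.22 CPM in aPU.1KO mice, a log2 fold change of 0.51 (SE 0.28). Control mouse 2 was far below the other controls, and without it the log2 fold change was 0.27. With a macrophage score as a covariate it was 1.56. With the counts of both genes summed the log2 fold change was 0.24 (SE 0.12), the typical value of the 78 genes.

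Other members also share sequence. Mrpl53 shares 695 of its 790 exon bases with Gm42688 on the same strand, which took counts equal to 12.6% of its own, and its log2 fold change was 0.13 (SE 0.08). The value for Mrpl53 was 0.0089 with library totals in place of TMM factors and −0.0074 with offsets for transcript length and GC content. Mrps25 and Mrps34 share more than 50% of their transcripts with genes on the opposite strand, Nr2c2 and Mapk8ip3. With Nr2c2 added, the log2 fold change of Mrps25 went from 0.12 to −0.0001, and with Mapk8ip3 added that of Mrps34 went from 0.24 to 0.19. The value for Mrps34 alone was 0.11 with library totals, and 0.16 at the lowest when a mouse was left out. In all, 23 of the 78 genes overlap an exon of another gene, 20 of them on the opposite strand, and whether the libraries kept strand is not given in the sources used here. Pseudogenes of Mrpl22, Mrpl27, Mrps10, Mrps21 and Mrpl42 took at most 0.196% of the parent's counts.

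The members with the least change, named after their values were seen, were Mrpl21, Mrpl4 and Mrps23, at log2 fold changes of 0.02, 0.04 and 0.05. Mrpl4 stood at 30.1, 27.4 and 34.0 CPM in controls and at 30.3, 32.0 and 31.7 CPM in aPU.1KO mice, with all aPU.1KO mice inside the range of the controls. Mrpl38, also named after its values were seen, had the largest coefficient of variation among the aPU.1KO mice (29.5%), at 26.9, 27.4 and 28.2 CPM in controls and at 40.3, 44.5 and 24.2 CPM in aPU.1KO mice. In Mrpl38, aPU.1KO mouse 3 fell below every control, while the other two lay well above.

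The summed level of the 78 genes was 2267, 2247 and 2405 CPM in the controls and 2726, 2921 and 2580 CPM in the aPU.1KO mice, that is 2306 ± 86.1 and 2742 ± 171 (SD, n = 3 each), 18.9% higher. The sums did not overlap. aPU.1KO mouse 2 was the highest of the 6 mice in 56 of the 78 genes, against 28.2% of all genes, and control mouse 2 the lowest in 44, against 15.3%. Against the mean of the controls, the median gene stood at a log2 difference of 0.23, 0.35 and 0.15 in aPU.1KO mice 1, 2 and 3, and at −0.03, −0.04 and 0.06 in the controls. In aPU.1KO mice 1, 2 and 3, 69, 73 and 56 of the 78 genes exceeded all controls, as did 36.4%, 39.3% and 34.4% of all genes. Without aPU.1KO mouse 2, the median log2 fold change was 0.20.

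**Figure D4:**
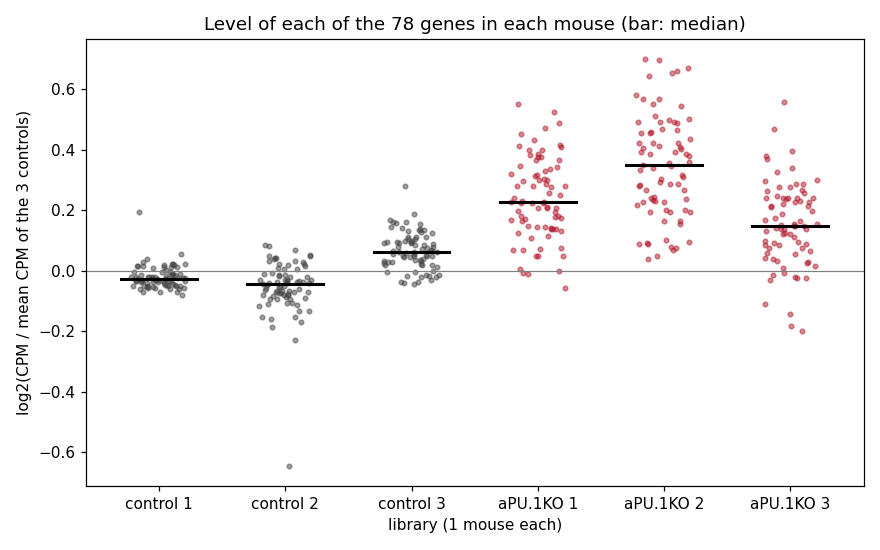
Level of each of the 78 genes in each mouse (points) as log2 of its CPM over the mean CPM of the 3 controls (y axis), with the median of the 78 as a bar. The medians of the controls lie between −0.04 and 0.06 and those of the aPU.1KO mice at 0.23, 0.35 and 0.15, and the lowest point in control 2 is Mrpl23.

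The size of the difference depended on the scaling. With library totals alone in place of TMM factors, the median over all genes moved from 0.014 to −0.11 and that of the 78 genes from 0.23 to 0.11, so that the distance between them stayed at 0.22. As a plain share of all counts, the 78 genes took 0.238%, 0.225% and 0.259% in the controls and 0.261%, 0.266% and 0.260% in the aPU.1KO mice. These shares differ by 8.96% between the group means and nearly meet at control mouse 3 and aPU.1KO mouse 3.

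Among the 10629 genes in the range of control CPM of the 78, the median log2 fold change was 0.022, but among the 1821 of them whose transcript was no longer than the median of the 78 (1073 bases) it was 0.13, and 70.7% of these were above 0. Of these 1821 genes, 22.1% were higher at an unadjusted p under 0.05 and 32% had every aPU.1KO mouse above every control mouse, more than over all genes (11.9% and 16.7%). Within the 78 genes, log2 fold change and log2 transcript length had a Pearson r of 0.085, and over all genes one of −0.083, both weak and given as descriptions across genes. With transcript length and GC content taken into account as offsets, the median of the 78 was 0.16, with 72 above 0 and 28 higher at an unadjusted p under 0.05, against 9.63% of all genes. The 80 genes of cytosolic ribosomal proteins, which are also short, had a median of 0.10 on the log2 scale, with 67 above 0, and of those with an unadjusted p under 0.05, 13 were higher and 1 was lower.

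The macrophage markers moved with genotype as well, and none of the 13 was at 0 in any library. In control mice 1, 2 and 3 the summed macrophage levels were 1551, 456 and 1491 CPM. The summed levels of the 78 genes in the same mice were 2267, 2247 and 2405 CPM. A relation between the 2 levels across mice was not tested. With a macrophage score as a covariate, the median log2 fold change of the 78 genes was 0.25 and 75 were above 0, but 3 of them were higher at an unadjusted p under 0.05, a count that over all genes fell from 1662 to 90 (0.646%). The score, the mean log2 CPM of the 13 markers, was 6.158, 4.594 and 5.882 in the controls and 3.878, 3.485 and 3.907 in the aPU.1KO mice. It did not overlap between the groups, so that this fit can hardly tell macrophage content from genotype.

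Genes that act with the mitochondrial ribosome also had mostly positive log2 fold changes. For the counts of these lists, the shares to read them against are 52% above 0 and 11.9% higher at an unadjusted p under 0.05 over all genes, and 70.7% and 22.1% among the 1821 genes of like level and short transcript. All 5 subunits whose symbols fall outside the name rule had positive log2 fold changes (median 0.21), 2 of them at an unadjusted p under 0.05, with Chchd1 at 0.45 (SE 0.14) and Ptcd3 at 0.21 (SE 0.08). Of 20 factors that assemble the ribosome or modify its RNA, 18 were above 0 (median 0.22) and 7 had an unadjusted p under 0.05. Mpv17l2, which takes part in assembly, stood at 36.5, 39.0 and 38.8 CPM in controls and at 52.6, 56.1 and 47.9 CPM in aPU.1KO mice. Its log2 fold change was 0.45 (SE 0.08), with an adjusted p of 0.0725 by edgeR's quasi-likelihood test, and the groups did not overlap. Mtg2, a GTPase of the large subunit, had a log2 fold change of 0.40 (SE 0.11).

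All 15 translation factors and regulators were above 0 (median 0.20), 4 of them at an unadjusted p under 0.05. Among them, Mtrf1, a release factor, had a log2 fold change of 0.47 (SE 0.12) and Mtif2, an initiation factor, one of 0.21 (SE 0.09). Of 19 aminoacyl-tRNA synthetases that act in mitochondria, 17 were above 0 (median 0.19) and 6 at an unadjusted p under 0.05. Rars2 and Fars2 had the smallest p of the 19, with log2 fold changes of 0.44 (SE 0.10) and 0.33 (SE 0.09). Gars and Kars, each of which makes the enzyme of both the cytosol and mitochondria, were at 0.08 and 0.01, and are named outside the rule. Other synthetases were also near 0, with Lars2, Mars2 and Wars2 at −0.07, −0.03 and 0.04. Of 8 genes for transcription and upkeep of mitochondrial DNA, 7 were above 0 (median 0.24), with Polg2, an accessory subunit of the DNA polymerase, at 0.96 (SE 0.31) and Mgme1, a nuclease, at 0.57 (SE 0.16). Polg2 stood at 8.04, 8.14 and 8.88 CPM in controls and at 15.8, 23.4 and 9.33 CPM in aPU.1KO mice. Its aPU.1KO mice were widely spread, and mouse 3 was just above the highest control. In none of these lists did edgeR's quasi-likelihood test call a gene at an adjusted p under 0.05. DESeq2 called 2 assembly factors, 1 translation factor, 3 synthetases and 2 genes of mitochondrial transcription and DNA upkeep higher, and 0 of the 5 subunits outside the name rule. Over all genes DESeq2 called 4.69% higher, which is the share to read these counts against.

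The products of this machinery are translated from 13 mRNAs of mitochondrial DNA. Of these, 12 had a log2 fold change above 0 (median 0.59), against 52% of all genes. At an unadjusted p under 0.05, 5 were higher, against 11.9% of all genes. At an adjusted p under 0.05, edgeR called 0 (0.237% of all genes) and DESeq2 called 3 higher (4.69%). The summed level of the 13 mRNAs was 46753, 53844 and 40307 CPM in controls and 65111, 103060 and 50593 CPM in aPU.1KO mice. The groups overlapped, since aPU.1KO mouse 3 lay below control mouse 2, and aPU.1KO mouse 2 stood far above the rest. For mt-Nd3 and mt-Atp6, a subunit of complex I and one of ATP synthase, the log2 fold changes were 0.95 (SE 0.33) and 0.90 (SE 0.31). In both, aPU.1KO mouse 2 was the highest and mouse 3 the closest to the controls. mt-Nd3 stood at 473.5, 574.2 and 534.2 CPM in controls and at 1021.2, 1485.5 and 557.5 CPM in aPU.1KO mice. mt-Atp6 stood at 3190.5, 3756.9 and 2855.1 CPM against 5454.4, 9015.4 and 3870 CPM. The 2 mitochondrial ribosomal RNAs were listed too, but 0 of them were found in the count table. Of the 6 genes listed for mitochondrial mass, which include Cs, Vdac1 and Tomm20, all had values above 0, against 52% of all genes. Of these 6, 2 were higher at an unadjusted p under 0.05 (11.9% of all genes) and DESeq2 called 1 higher (4.69%). The median of the 6, 0.24, was close to that of the 78 genes.

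**Figure D5:**
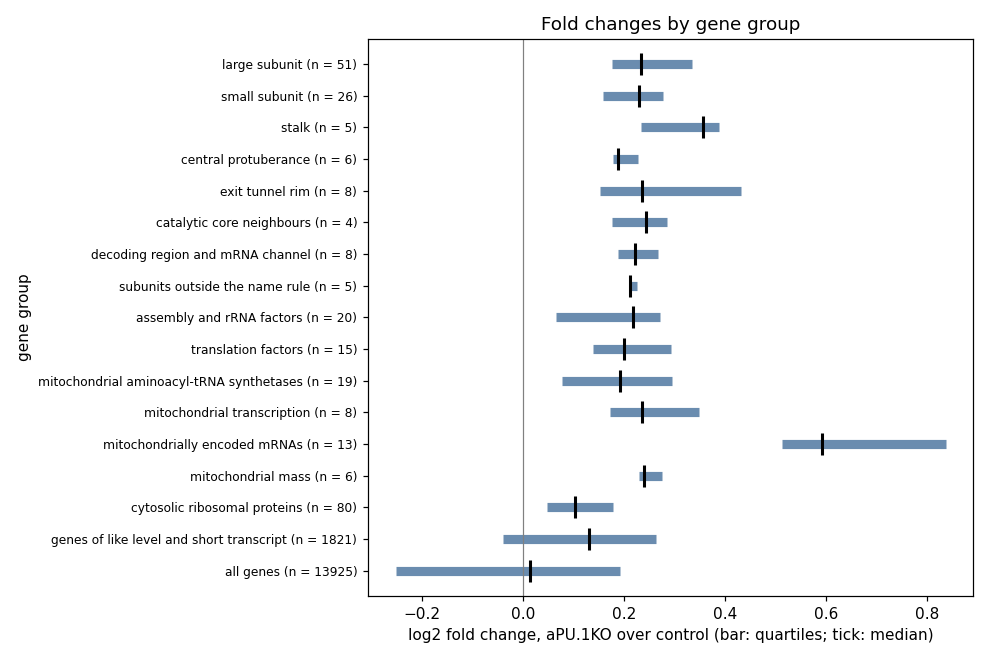
Log2 fold change (x axis, aPU.1KO over control) by gene group (y axis, with the number of genes tested), as the median (tick) and quartiles (bar) over genes. The ribosomal subunits, their assembly factors, translation factors and the mitochondrial mass genes have medians between 0.19 and 0.36 by group. The mitochondrially encoded mRNAs have one of 0.59. Genes of like level and short transcript have a median of 0.13, cytosolic ribosomal proteins one of 0.10, and all genes one of 0.014.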

How the data were processed

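RNA of the adipocyte fraction was sequenced in 1 library from each of 3 control and 3 aPU.1KO mice. The authors quantified reads with Salmon (option validateMappings), summed transcripts to genes and deposited estimated counts as whole numbers without normalization; the submitters' processing notes also name FastQC and GRCm38, and tool versions and the annotation release are not given in the sources used here. Genes were matched by Ensembl identifier to GENCODE M21 (GRCm38), which named 35102 of 35122; the rest hold 0.0019% of counts. No library was a duplicate of another (the lowest chi-square over its degrees of freedom was 15.6). Replicates are separate mice.

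The test was edgeR's quasi-likelihood test (edgeR 4.0.16 in R 4.3.3: genes kept by filterByExpr, TMM scaling, glmQLFit, glmQLFTest, Benjamini-Hochberg adjustment over 13925 genes; common biological coefficient of variation 0.194). The study's methods name DESeq2 (1.42.0), which was run as an alternative, as was limma-voom (limma 3.58.1). The SE is the coefficient divided by the root of its F statistic. A level per kb is CPM over the mean transcript length of the gene. Near-identical copies were found with BLAST 2.17.0 (identity of at least 95% over at least 50% of the transcript). Scripts ran in Python 3.11.15 with pandas 2.3.3. The fits were tested on simulated data whose changes were larger than those of the 78 genes, so that changes as small as these were not covered. Total counts of 20550252 to 69283842 gave the 78 genes at least 32 counts in every library.

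The members and gene lists were chosen with earlier results of these data known. Named genes are the 8 with the smallest p, the 5 with the highest and 3 with the lowest level per kb in controls, the Mrps18 paralogs, Mrps36, Mrps30, Mrpl12, those with near-identical copies, and the 2 with the smallest p of each related list. Mrpl55 was moved from the proteins with a bacterial counterpart to the mitochondria-specific ones after the design was written, since its listing was an error. Promoter windows came from RefSeq (GRCm38.p6). Alternatives were other scalings and filters, other tools, leaving out each mouse, thinning of control library 1, summed copies, length and GC offsets and a macrophage covariate.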

Additional observations from a re-analysis of the deposited data

How the results depend on the processing

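The median log2 fold change of the 78 genes stayed above 0 in every alternative run, and 67 to 78 of the 78 were above 0 in each. With library totals only, the median fell to 0.11, the count higher at an unadjusted p under 0.05 to 16 (5.15% of all genes), and the count without overlap between the groups to 22 (7.59% of all genes), and Mrps25 turned to −0.0014. DESeq2 called 16 of the 78 at its adjusted p under 0.05, where edgeR called 0. With the macrophage covariate, whose score did not overlap between the groups, 3 were higher at an unadjusted p under 0.05 (0.646% of all genes). With the counts of copies summed Mrps25 was at −0.0001, and with length and GC offsets Mrpl53 was at −0.0074. Leaving out each mouse in turn, the number higher at an unadjusted p under 0.05 ran from 18 (without control mouse 1, 4.15% of all genes) to 49 (without aPU.1KO mouse 3, 13.3%), and was 23 without control mouse 2 (11%); the number called at an adjusted p under 0.05 ran from 0 to 2. The 2 were Mrpl11 and Mrps15, at adjusted p of 0.0402 and 0.0296 by edgeR without control mouse 2, where 1193 genes were called in all, against 33 with every mouse. The number without overlap ran from 46 (without control mouse 1, 16.1% of all genes) to 68 (without control mouse 3, 20.1%), and the median from 0.20 to 0.29. The causes of these differences were not tested. Of the values of the 27 genes named by rule under the alternatives, 498 kept direction and side of the threshold, 12 moved past it and 3 changed sign, as given above. Since the main fit called 0 of the 78, the side of the threshold is kept by any alternative that calls none, whatever its power. Of the genes named after their values were seen, Mrpl21, Mrpl4 and Mrps23 also fell below 0 in some alternatives, to −0.12, −0.09 and −0.08 at the lowest. The study used littermate controls, but the labels do not give the litters. Mice are labelled by their own numbers, which the groups do not share, so that no paired analysis was possible.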
